A study of Mus musculus with 32 samples.

Results

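The cadherin and synaptic adhesion genes are cell-surface proteins by which brain cells recognise and hold each other. Their open chromatin was followed in 6 ATAC-seq peak lists from mouse orbitofrontal cortex (OFC) astrocytes. A peak was counted when it lay on chromosomes 1 to 19 and the gene listed as nearest to it was a cadherin (Cdh), protocadherin (Pcdh), contactin (Cntn), neurexin (Nrxn), neuroligin (Nlgn), Lrrtm, Slitrk, Flrt, Eph receptor (Epha, Ephb) or Robo gene. Of 13794 peaks on these chromosomes (16174 in all), 242 met this rule, and they named 19 of the 129 family genes that GENCODE annotates there. ATAC-seq uses a transposase that inserts adapters into accessible DNA, and a peak is a stretch where the reads pile up above background.

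Astrocytes were isolated by magnetic-activated cell sorting (MACs) from virally transduced OFC, in 32 samples of 3 pooled mice each. The study asked how ZBTB7A, a zinc finger chromatin regulator, acts in astrocytes under social stress. The mice were male, were bought at 6 to 12 weeks of age and all carried an AAV6 virus in which the astrocyte promoter GFAP drives the insert, so that every group, controls included, had undergone surgery and viral expression. GFP control and GFP CSDS mice carried a negative control microRNA and Zbt-KD control and Zbt-KD CSDS mice a microRNA against Zbtb7a, with 5 samples per group, and the CSDS groups were exposed to chronic social defeat stress for 10 days while the control groups were not. GFP SSDS mice carried the empty GFP vector and ZBT-OE SSDS mice the ZBTB7A overexpression vector, with 6 samples per group, and both were exposed to subthreshold social defeat stress for 1 day. For these last groups the sample labels name the virus, and the stress was taken from the study's methods. Each group had 1 peak list and no value per sample, so no comparison below has a replicate check or a p-value, and the ranges given are 95% Wilson intervals that cover counting error over peaks only.

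Classical cadherins bind cadherins of the same kind on the facing cell through calcium, and protocadherins add a finer code of recognition between neurites. Contactins are immunoglobulin-like proteins anchored in the membrane of axons and glia, Slitrk and Flrt proteins carry leucine-rich repeats and organise synapses and guide axons, and EphA receptors are tyrosine kinases that read ephrin-A ligands on neighbouring cells. Many of these genes are large, sparsely spaced and flanked by wide gene-poor stretches, and astrocytes as well as neurons express members of each class.

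Nearly all family peaks had their centre far from the listed gene start. The sequences below set windows at gene starts that lay inside a peak beside 1 window from a distant family peak. The first set gives the 250 bases upstream of the start of the 4 family genes for which this whole window lay inside a peak in at least 1 list, and the last gives the central 300 bases of the stretch downstream of Slitrk6 that all 6 lists shared. Capitals mark CpG dinucleotides, the bases that are dense in many vertebrate promoters. Sequences are from RefSeq, build GRCm38.p6, 5′ to 3′ on the strand given.
Flrt2 promoter, chr12:95691976-95692225, plus strand: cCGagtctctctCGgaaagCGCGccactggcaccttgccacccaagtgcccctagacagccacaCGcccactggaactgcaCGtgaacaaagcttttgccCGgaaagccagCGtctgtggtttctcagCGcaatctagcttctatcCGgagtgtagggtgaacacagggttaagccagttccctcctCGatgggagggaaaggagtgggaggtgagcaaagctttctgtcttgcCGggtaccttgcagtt
Pcdh10 promoter, chr3:45378148-45378397, plus strand: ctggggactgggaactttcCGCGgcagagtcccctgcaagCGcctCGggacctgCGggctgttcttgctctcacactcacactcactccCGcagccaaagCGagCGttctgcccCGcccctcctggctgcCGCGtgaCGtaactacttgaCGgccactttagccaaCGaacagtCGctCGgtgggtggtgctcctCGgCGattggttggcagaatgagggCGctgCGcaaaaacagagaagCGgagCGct
Epha1 promoter, chr6:42373269-42373518, minus strand: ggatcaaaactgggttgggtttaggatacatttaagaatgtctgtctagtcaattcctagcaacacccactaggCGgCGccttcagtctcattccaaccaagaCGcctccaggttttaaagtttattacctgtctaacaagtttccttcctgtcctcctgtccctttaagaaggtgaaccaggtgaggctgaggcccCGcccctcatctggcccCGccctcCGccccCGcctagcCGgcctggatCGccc
Epha6 promoter, chr16:60605532-60605781, minus strand: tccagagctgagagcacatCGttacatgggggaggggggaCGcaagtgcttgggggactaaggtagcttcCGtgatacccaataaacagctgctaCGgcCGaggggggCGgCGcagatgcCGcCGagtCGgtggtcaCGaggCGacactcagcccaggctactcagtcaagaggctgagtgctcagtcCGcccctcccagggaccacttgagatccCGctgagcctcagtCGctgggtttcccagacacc
Slitrk6 shared stretch, chr14:110070890-110071189, plus strand: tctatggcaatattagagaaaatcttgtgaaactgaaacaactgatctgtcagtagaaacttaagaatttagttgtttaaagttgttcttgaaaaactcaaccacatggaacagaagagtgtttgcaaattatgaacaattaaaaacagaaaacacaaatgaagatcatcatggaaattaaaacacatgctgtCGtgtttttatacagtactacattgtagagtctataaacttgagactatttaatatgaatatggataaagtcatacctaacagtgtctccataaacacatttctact
The Flrt2 window held 12 CpG at 57.2% GC and lay inside a peak in 6 lists, the Pcdh10 window held 22 CpG at 63.2% GC and lay inside a peak in 4, the Epha1 window held 9 CpG at 54.4% GC and lay inside a peak in 3, and the Epha6 window held 15 CpG at 62.8% GC and lay inside a peak in 2. Over 32851 annotated promoters the median was 6 CpG and 52.4% GC in 250 bases. The Slitrk6 window held 1 CpG in 300 bases at 30% GC, while the whole Slitrk6 peak of GFP control had 38.7% GC. That window is thus not typical of its peak in base composition. The peaks around the Epha1 window were named for another locus, as were most of those around the Pcdh10 window.

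The lists differed in the scale of their peaks, which touches every count of peaks below. The narrowest peak of a list was 687 bp in GFP control, 1174 in GFP CSDS, 6425 in Zbt-KD control, 6507 in Zbt-KD CSDS, 8469 in GFP SSDS and 20269 in ZBT-OE SSDS, and the smallest gap between peaks was nearly the same length in each. A wide stretch that is 1 peak in 1 list could therefore be many peaks in another, and covered length is given beside counts. Of 10 astrocyte marker genes, 0 bodies were overlapped by a peak in 5 lists and 1 (Atp1b2) in ZBT-OE SSDS, with Gfap, Aqp4, Slc1a2, Slc1a3, Aldh1l1, S100b, Gja1, Sox9 and Aldoc covered in none. Of 10 neuronal markers, Map2 was overlapped in 4 lists, and 0 of 10 microglial and 0 of 10 oligodendrocyte marker bodies were overlapped in any. The lists thus did not show the labelled cell type by its marker genes. The Zbtb7a gene itself had 0 bases covered in all 6 lists.

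The family supplied 119 peaks in GFP control, 54 in GFP CSDS, 20 in Zbt-KD control, 16 in Zbt-KD CSDS, 18 in GFP SSDS and 15 in ZBT-OE SSDS. These were 2.20% (1.84 to 2.62%), 1.58% (1.22 to 2.06%), 1.54% (0.997 to 2.36%), 1.35% (0.833 to 2.18%), 1.40% (0.889 to 2.21%) and 1.25% (0.760 to 2.05%) of each list's peaks on chromosomes 1 to 19. The count was 119 against 15 at its extremes, but the length covered ran the other way. Family peaks covered 1515 kb in GFP control, 1867 in GFP CSDS, 1831 in Zbt-KD control, 2498 in Zbt-KD CSDS, 2758 in GFP SSDS and 2635 in ZBT-OE SSDS, and their median width went from 1907 bp in GFP control to 89987 bp in ZBT-OE SSDS. As a part of all covered length, the family held between 1.05% in GFP control and 1.42% in Zbt-KD CSDS.

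A small set of genes carried the peaks. Cntn5 was named by 53, Epha6 by 40, Slitrk5 by 31, and Pcdh18 and Pcdh9 by 28 each, and these 5 genes together took 180 of the 242 (74.4%). Cdh6, Cdh7, Pcdh9, Pcdh18, Cntn5, Slitrk5, Slitrk6, Flrt2 and Epha6 were named in all 6 lists, 9 of 19 genes, against a background of 382 of 2013 nearest genes (19.0%), and they held 223 of the 242 peaks (92.1%). Cdh3 was named in 5 lists, Cntn1, Cntn4 and Pcdh10 in 2, and Cdh9, Cdh12, Cdh19, Epha1, Epha3 and Pcdh20 in 1. A gene with many peaks had more chances to appear in every list, so the share of genes present in all lists was not compared by a test.

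**Figure D1:**
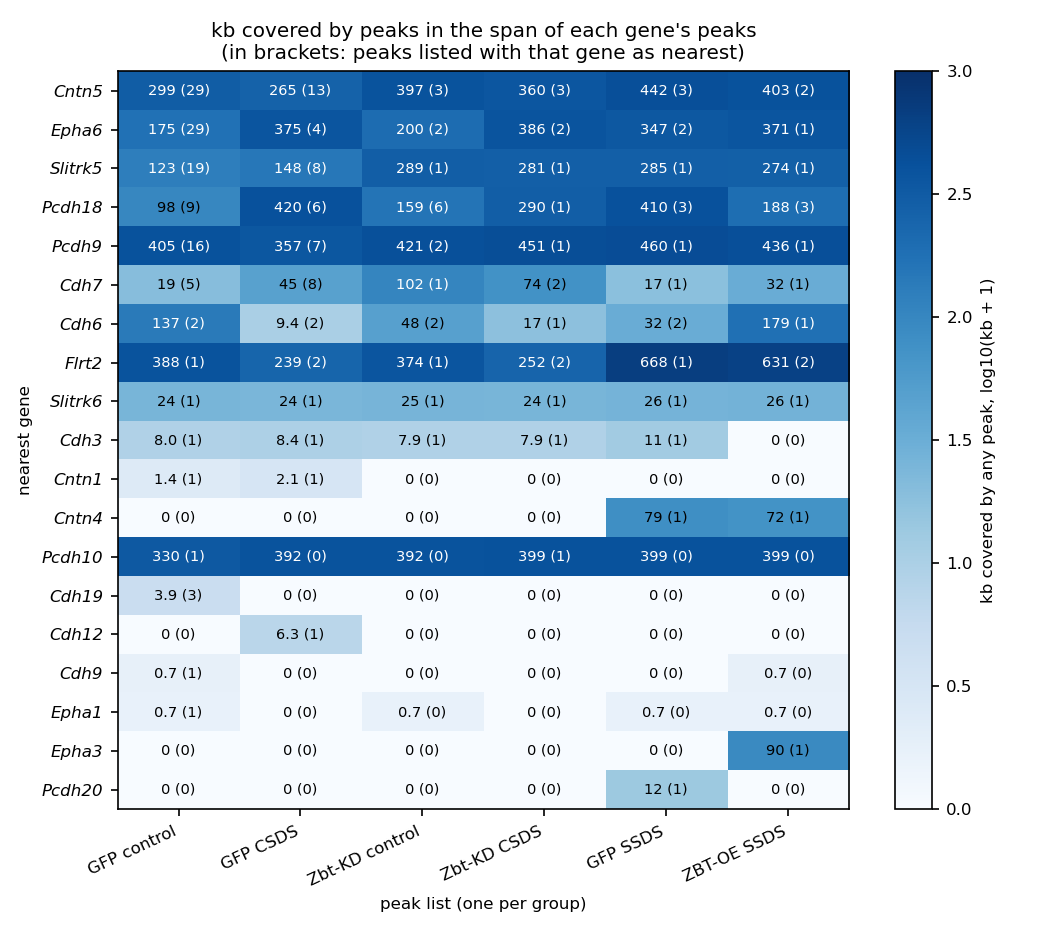
Heat map of the 19 genes (rows) in the 6 peak lists (columns). The shade and the first number in each cell give the kb covered by any peak within the span of that gene's peaks, and the number in brackets gives the peaks listed with that gene as nearest. Slitrk6 kept nearly the same length in each list, from 23.6 to 25.9 kb, while Cntn5 went from 29 peaks in GFP control to 2 in ZBT-OE SSDS with a covered length between 265 and 442 kb.

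The members without a peak are given here for most subfamilies, not for all. No peak named a neuroligin, an Lrrtm gene, an EphB receptor or a Robo receptor. These subfamilies have 2, 4, 5 and 4 annotated autosomal members, among them Nlgn1 and Nlgn2, postsynaptic organisers of synapses, and the Robo receptors Robo1, Robo2, Robo3 and Robo4. The Lrrtm genes without a peak were Lrrtm1, Lrrtm2, Lrrtm3 and Lrrtm4, and the EphB genes Ephb1, Ephb2, Ephb3, Ephb4 and Ephb6. Of 23 classical and related cadherins, 17 had none, among them Cdh1, Cdh2, Cdh4, Cdh5, Cdh8, Cdh10, Cdh11, Cdh13, Cdh18 and Cdh20. The 56 clustered protocadherins of chromosome 18, whose promoters are chosen at random in single neurons, were nearest to no peak, and 0 of their bodies were overlapped in any list. Further members without a peak were Pcdh1, Pcdh7, Pcdh8, Pcdh12, Pcdh15 and Pcdh17, the contactins Cntn2, Cntn3 and Cntn6, Slitrk1 and Slitrk3, Flrt1 and Flrt3, and the receptors Epha2, Epha4, Epha5, Epha7, Epha8 and Epha10. The remaining cadherins without a peak were Cdh15, Cdh16, Cdh17, Cdh22, Cdh23, Cdh24 and Cdh26. A gene listed as nearest depends on its neighbours, so a gene missing from these names could still be covered, as Cntn3, Cdh24 and Pcdh10 show below.

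Among the classical cadherins, Cdh6, Cdh7, Cdh9, Cdh12 and Cdh19 belong to the type II class, whose members mark groups of neurons and their targets, and Cdh3 is P-cadherin of the type I class. The 10 Cdh6 peaks lay 1704 to 1793 kb upstream of the gene, in the gene-poor stretch that separates it from Cdh9. Any peak covered 137 kb of this 179-kb stretch in GFP control, 9.41 in GFP CSDS, 47.6 in Zbt-KD control, 16.6 in Zbt-KD CSDS, 31.9 in GFP SSDS and 179 in ZBT-OE SSDS. Coverage of the Cdh6 stretch was thus highest in GFP control and ZBT-OE SSDS and lowest in the CSDS lists. The single Cdh9 peak, 746 bp wide in GFP control, lay in this same stretch, and the ZBT-OE SSDS peak named for Cdh6 ran across it.

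Cdh7 peaks lay 857 to 1024 kb upstream of its start. Covered length there was 18.6 kb in GFP control, 45.3 in GFP CSDS, 102 in Zbt-KD control, 73.7 in Zbt-KD CSDS, 17.2 in GFP SSDS and 32.3 in ZBT-OE SSDS. The Zbt-KD lists had the greatest cover at Cdh7 and GFP control and GFP SSDS the least. The cover was 1 peak in Zbt-KD control and 5 in GFP control, so scale and cover cannot be told apart here. Of the 8 GFP CSDS peaks at this gene, 5 lay within 52.2 kb at the far end of the stretch, each 1790 to 2748 bp wide, and met no peak of any other list. The Zbt-KD and SSDS lists held no peak narrower than 6425 bp. No share over all GFP CSDS peaks is given beside this count.

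Cdh3 gave the family peak of highest fold enrichment, the ratio of reads in the peak to the local background, in 5 lists. Its values were 3.38 in GFP control, 4.25 in GFP CSDS, 3.26 in Zbt-KD control, 2.91 in Zbt-KD CSDS and 5.13 in GFP SSDS, and fold enrichment is comparable only within a list. The peak was 7.92 to 11.2 kb wide, lay 24.2 to 25.1 kb upstream of the Cdh3 start at chr8:106481061-106492276 (its GFP SSDS bounds, build mm10), and the annotation placed an IAPEz internal sequence, an endogenous retrovirus of mice, at its centre in each of these lists. ZBT-OE SSDS had no peak here and its nearest one was 515 kb away, while no peak of that list was narrower than 20269 bp. Cdh12 had 1 peak of 6303 bp in GFP CSDS, 747 kb downstream of its start, and Cdh19 had 3 peaks of 850 to 1977 bp in GFP control, 238 to 267 kb upstream.

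The protocadherins that were named are of the non-clustered kind, of which Pcdh9, Pcdh10 and Pcdh18 are δ-protocadherins that mark brain areas and fibre tracts. Pcdh9 peaks lay 1465 to 1781 kb downstream of its start, in a stretch of 460 kb. Cover of this stretch was high in every list, at 87.9% in GFP control, 77.5% in GFP CSDS, 91.4% in Zbt-KD control, 98.0% in Zbt-KD CSDS, 100% in GFP SSDS and 94.7% in ZBT-OE SSDS. It was cut into 18 peaks in GFP control and 8 in GFP CSDS, of which 16 and 7 were named for Pcdh9, and it was a single peak of 436 to 460 kb in Zbt-KD CSDS, GFP SSDS and ZBT-OE SSDS. It was the widest family peak of Zbt-KD control (382915 bp) and Zbt-KD CSDS (451384 bp).

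Pcdh18 varied more. Its peaks lay 178 to 559 kb downstream of the start in a span of 575 kb, of which peaks covered 17.1% in GFP control, 73.2% in GFP CSDS, 27.6% in Zbt-KD control, 50.4% in Zbt-KD CSDS, 71.3% in GFP SSDS and 32.6% in ZBT-OE SSDS. The 3 lists with the least cover at Pcdh18 were both unstressed lists and ZBT-OE SSDS. The widest family peak of GFP CSDS stood here, at 403754 bp and a fold enrichment of 2.27, where GFP control had 13 peaks that covered 98.5 kb in all, 9 of them named for Pcdh18. Pcdh20 had a single peak, of 12349 bp in GFP SSDS.

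Pcdh10 shows what the nearest-gene label hides. It was named by 1 peak in GFP control and 1 in Zbt-KD CSDS, yet peaks covered 94.3%, 91.3%, 88.7%, 100%, 100% and 100% of its 57.2-kb body in GFP control, GFP CSDS, Zbt-KD control, Zbt-KD CSDS, GFP SSDS and ZBT-OE SSDS. In 4 lists its start site lay inside a peak. In GFP control the nearest peak edge was 1549 bp from the start and in GFP CSDS 2458 bp. In GFP SSDS and ZBT-OE SSDS the covering peak was 955 kb and 953 kb wide and carried the name of a neighbouring locus, 2610316D01Rik.

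Contactins supplied 57 peaks, 53 of them at Cntn5, a contactin known from synapses of the auditory pathway. All Cntn5 peaks lay upstream of the gene, 217 to 1014 kb away. They are given in 3 blocks whose bounds were set after the peaks had been seen. In GFP control narrow peaks ran on across the bound at 250 kb. The block 200 to 250 kb upstream was covered in every list, by 28.8 kb in GFP control, 22.7 in GFP CSDS, 14.1 in Zbt-KD control, 19.7 in Zbt-KD CSDS, 28.9 in GFP SSDS and 20.4 in ZBT-OE SSDS. The far block, 700 to 1200 kb upstream, was likewise covered in every list, by 225 kb in GFP control, 242 in GFP CSDS, 383 in Zbt-KD control, 340 in Zbt-KD CSDS, 389 in GFP SSDS and 383 in ZBT-OE SSDS. The middle block differed between lists in the presence of peaks. It held 23 peaks and 45.3 kb in GFP control, with a median width of 1745 bp, 1 peak of 24.4 kb in GFP SSDS, and 0 peaks in GFP CSDS, Zbt-KD control, Zbt-KD CSDS and ZBT-OE SSDS. The widest of the GFP control peaks was 4575 bp, while no peak of Zbt-KD control, Zbt-KD CSDS or ZBT-OE SSDS was narrower than 6425 bp. For those lists the absence of such peaks and the scale of the list cannot be told apart.

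Cntn1, a contactin of axons and of the myelin border, had a narrow peak 58.6 to 58.7 kb upstream of its start in GFP control (1372 bp, fold enrichment 1.85) and GFP CSDS (2129 bp, fold enrichment 2.88). Among the family peaks of GFP CSDS only the Cdh3 peak had a higher fold enrichment, and the annotation placed a young L1 element, L1Md_A, at its centre. Cntn4 had a peak of 78.9 kb in GFP SSDS and 71.6 kb in ZBT-OE SSDS inside its own gene, with fold enrichments of 2.03 and 2.01, and none within 662 kb in the other lists. Cntn3 was named by no peak, but peaks covered 51.8% of its 410-kb body in GFP SSDS, 22.2% in ZBT-OE SSDS and 9.81% in GFP CSDS.

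The Slitrk genes, whose products bind receptor protein tyrosine phosphatases across the synaptic cleft, had peaks at Slitrk5 and Slitrk6. Slitrk6 had exactly 1 peak in each list, 684 kb to 685 kb downstream of its start, with widths of 23.9 kb in GFP control, 23.6 in GFP CSDS, 24.9 in Zbt-KD control, 24.3 in Zbt-KD CSDS, 25.8 in GFP SSDS and 25.9 in ZBT-OE SSDS. The stretch common to all 6, chr14:110059292-110082786, was 23495 bp long, and its centre is the CpG-poor sequence printed above. Fold enrichment at Slitrk6 was 2.38, 2.23, 2.44, 2.55, 2.66 and 2.84 in the same order, which put it among the 3 highest family peaks in Zbt-KD control, Zbt-KD CSDS, GFP SSDS and ZBT-OE SSDS.

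Slitrk5 peaks filled a span of 291 kb downstream of the gene, with centres 709 to 905 kb from its start. This span held 19 peaks in GFP control, 8 in GFP CSDS and 1 in each of the other lists. Peaks covered 42.4% of it in GFP control, 50.7% in GFP CSDS, 99.2% in Zbt-KD control, 96.6% in Zbt-KD CSDS, 98.0% in GFP SSDS and 94.1% in ZBT-OE SSDS. The lists with the widest peaks thus had 1 peak where GFP control had 19.

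**Figure D2:**
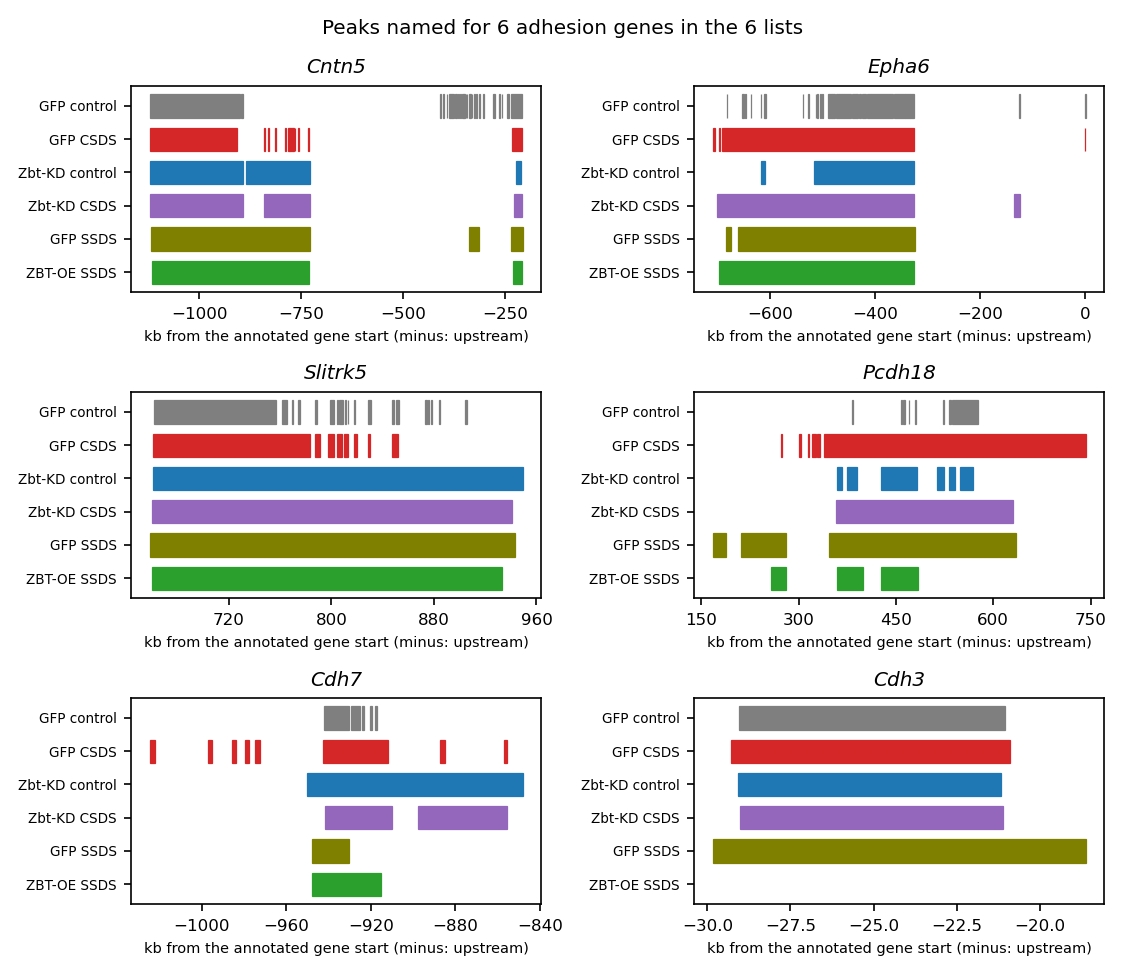
Peaks named for Cntn5, Epha6, Slitrk5, Pcdh18, Cdh7 and Cdh3. Each box is a peak, each row a list, and the horizontal axis gives kb from the annotated gene start, negative values being upstream in the direction of transcription. The middle group of narrow Cntn5 peaks stands in the GFP control row, with 1 wider peak in the GFP SSDS row, and the Cdh3 row of ZBT-OE SSDS is empty.

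Flrt2, a leucine-rich repeat protein that binds Unc5 receptors and latrophilins, was the gene whose own sequence was covered most fully. Its start site lay inside a peak in all 6 lists, and its 93.0-kb body was covered to 98.3% in GFP CSDS and to 100% in the other 5. The peak at the start was 264 kb wide in GFP control, 76.2 in GFP CSDS, 231 in Zbt-KD control, 216 in Zbt-KD CSDS, 668 in GFP SSDS and 513 in ZBT-OE SSDS. It was the widest family peak of GFP control, GFP SSDS and ZBT-OE SSDS, and in GFP CSDS a short gap past the start split it. Fold enrichment of the start-site peak was 1.85, 1.41, 1.87, 1.72, 2.00 and 1.96 in the same order of lists.

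Epha6, a receptor of the EphA class, carried 40 of the 42 Eph receptor peaks. A block that began 324 to 326 kb upstream of the start was present in every list, and over the 709-kb span of its peaks the cover was 24.7% in GFP control, 52.8% in GFP CSDS, 28.2% in Zbt-KD control, 54.3% in Zbt-KD CSDS, 48.9% in GFP SSDS and 52.4% in ZBT-OE SSDS. Cover at Epha6 was lowest in both unstressed lists, as 29 peaks in GFP control and 2 in Zbt-KD control. A separate peak stood on the Epha6 start itself, of 1876 bp in GFP control (fold enrichment 1.79) and 1368 bp in GFP CSDS (fold enrichment 1.74), on the 15-CpG window printed above. In the other 4 lists the nearest peak lay 125 to 326 kb from that start, and none of those lists held a peak narrower than 6425 bp.

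Epha3, which like Epha6 reads ephrin-A ligands, had 1 peak in the series, in ZBT-OE SSDS at chr16:64068866-64158852 (89987 bp). Its fold enrichment of 3.27 was the highest of the family in that list. It lay 250 kb upstream, and the nearest peak was 123 kb away in GFP SSDS, 162 kb in GFP control and 841 to 842 kb in the other lists. Epha1 was named by a 701-bp peak in GFP control, and its start lay inside wide peaks named for the taste receptor gene Tas2r126 in Zbt-KD control, GFP SSDS and ZBT-OE SSDS.

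Few family genes were themselves covered. Peaks overlapped the body of 4 of the 129 family genes in GFP control, 5 in GFP CSDS, 4 in Zbt-KD control, 3 in Zbt-KD CSDS, 6 in GFP SSDS and 6 in ZBT-OE SSDS, or 2.33 to 4.65%. Of 20807 protein-coding genes, 6.03 to 12.2% were overlapped. The 129 include the 56 clustered protocadherins of chromosome 18, with 0 bodies overlapped in any list, and these neighbouring genes lower the family share. The share without them was not computed, so how far the family differs from all coding genes is not given here. The 8 genes met in any list were Pcdh10, Flrt2, Cdh12, Epha6, Epha1, Cntn3, Cntn4 and Cdh24, a short cadherin gene lying whole inside a ZBT-OE SSDS peak named for Psmb11. A start site lay inside a peak for 6 genes in any list (Flrt2, Pcdh10, Epha6, Epha1, Cdh24 and an inner transcript of Cntn3) and for 1, Flrt2, in all.

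By the authors' annotation 232 of the 242 peaks were intergenic, 6 intronic, 2 exonic (both at Pcdh10) and 2 at a promoter (both at Epha6). The intergenic share was 97.5% (92.8 to 99.1%) in GFP control, 96.3% (87.5 to 99.0%) in GFP CSDS, 95% (76.4 to 99.1%) in Zbt-KD control, 87.5% (64.0 to 96.5%) in Zbt-KD CSDS, 94.4% (74.2 to 99.0%) in GFP SSDS and 93.3% (70.2 to 98.8%) in ZBT-OE SSDS. Over all peaks of chromosomes 1 to 19 it was 81.3%, 78.2%, 79.5%, 78.6%, 71.2% and 64.6% in the same order. The class of a peak rests on its centre, so a wide peak called intergenic can still cross a gene.

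Distance to the listed start site was long. The median was 513 kb in GFP control, 794 in GFP CSDS, 586 in Zbt-KD control, 599 in Zbt-KD CSDS, 491 in GFP SSDS and 455 in ZBT-OE SSDS. Over all peaks the medians were 156, 119, 144, 144, 93.3 and 42.3 kb. Of the 242 peaks, 142 lay beyond 500 kb, 44 beyond 1 Mb and 5 within 10 kb. The last 5 were the Epha6, Pcdh10 and Epha1 peaks described above, and 13 peaks touched the body of the gene they were named for.

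**Figure D3:**
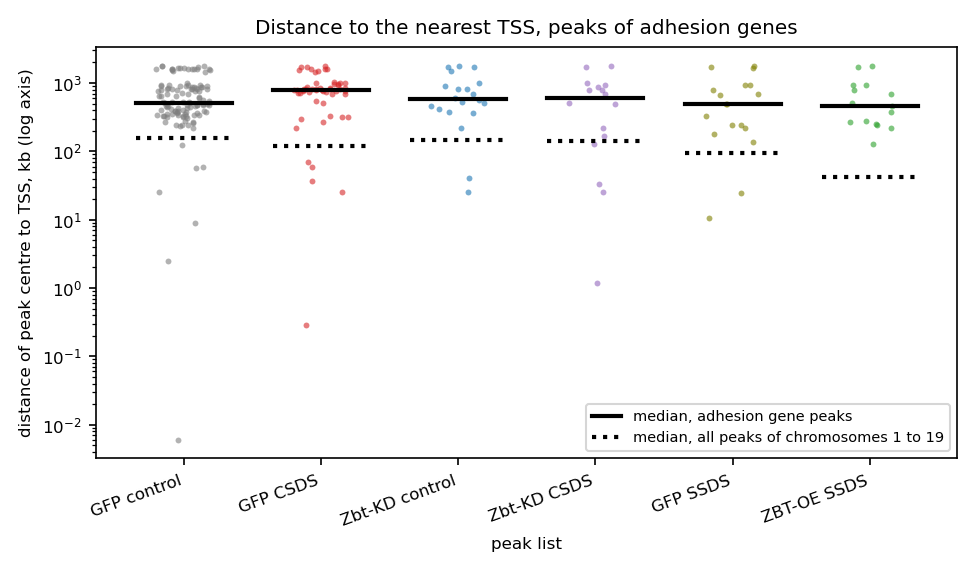
Distance of each family peak from the centre to the listed start site, in kb on a log axis, by peak list. Solid bars are the medians of the family and dotted bars those of all peaks on chromosomes 1 to 19. The family medians lie between 455 and 794 kb and the others between 42.3 and 156 kb.

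The base composition of the peaks was not used to choose them. Median GC content was 40.9% in GFP control, 40.4% in GFP CSDS, 37.9% in Zbt-KD control, 37.9% in Zbt-KD CSDS, 38.0% in GFP SSDS and 37.8% in ZBT-OE SSDS, against 41.7, 41.3, 39.6, 39.6, 40.0 and 40.8% over all peaks and 41.9% over the genome. The share of repeat-masked bases had a median of 46.8 to 48.4% in the family and 39.2 to 44.0% over all peaks. Weighted by length, the GC content of the family was again below that of all peaks in each list, but the repeat share was not above it throughout. Repeats then made up 45.2, 46.6, 45.5, 44.4, 44.2 and 44.5% of the family's length in the same order, against 46.4, 45.5, 45.8, 45.8, 44.3 and 43.6% over all peaks, higher in GFP CSDS and ZBT-OE SSDS and lower in the other 4 lists. An L1 element, the main active retrotransposon family of mice, lay at the centre of 90 of the 242 peaks. By list this was 39.5% (31.2 to 48.5%), 31.5% (20.7 to 44.7%), 50% (29.9 to 70.1%), 25% (10.2 to 49.5%), 33.3% (16.3 to 56.3%) and 40% (19.8 to 64.3%), against 32.6, 29.0, 31.6, 32.9, 26.5 and 22.4% over all peaks. Each family interval held the value over all peaks.

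**Figure D4:**
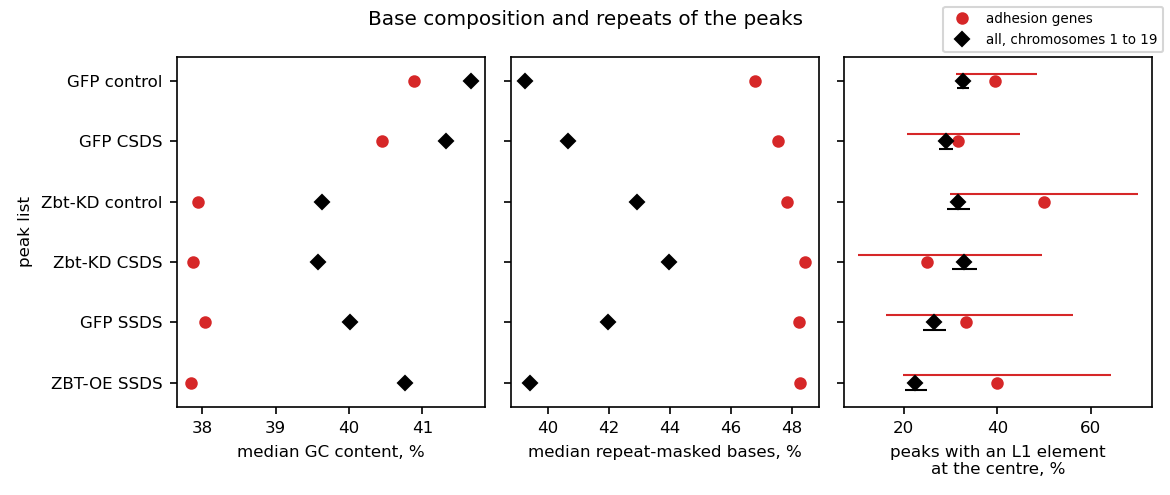
Median GC content, median share of repeat-masked bases and share of peaks with an L1 element at the centre, for family peaks (circles) and all peaks of chromosomes 1 to 19 (diamonds), by list. Lines in the right panel are 95% Wilson intervals over peaks. Family medians over peaks lie below those of all peaks for GC content and above them for repeats in each list, while the length-weighted repeat share lies above in GFP CSDS and ZBT-OE SSDS only.

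Merged over the 6 lists, the 242 peaks formed 55 regions. Peaks of all 6 lists met 11 of them (20%, 11.6 to 32.4%), where the background was 21.7% of 2176 regions. These 11 held 88.3% of the 4.47 Mb that the 55 regions spanned, against 74.0% of the length over all regions. The other regions were small. Their median width was 2296.5 bp against 376198 bp, where the medians over all regions were 19105 and 355946 bp. A single list met 36 of the 55, and over all regions 1140 of 2176. Of the 36, 22 were met by GFP control alone and 11 by GFP CSDS alone, a split given for the family only. With all lists brought to 1 scale, by joining peaks less than 20269 bp apart and dropping narrower ones, 16 regions were left, of which 8 were met by all 6 lists (50%, 28.0 to 72.0%, background 33.9%). A list could cover only a small part of such a region, as at Cdh6 in GFP CSDS. A region also took in overlapping peaks named for other genes, so its width and its lists are not those of family peaks alone. The Epha1 region was 124857 bp wide around a family peak of 701 bp, and the Pcdh10 region was 955129 bp wide. The comparisons below count peaks, and most of the peaks they call are short.

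Stress under the control virus was compared by GFP CSDS against GFP control. A peak was called opened when it met no base of any peak in the reference list, and closed when a reference peak met none in the other. For counts at 1 scale, the 2 lists of a comparison were joined and filtered at the larger of their narrowest widths. This was 1174 bp for GFP CSDS against GFP control and 6425 bp for Zbt-KD control against GFP control. It was 6507 bp for both comparisons of Zbt-KD CSDS and 20269 bp for ZBT-OE SSDS against GFP SSDS. Of 54 family peaks in GFP CSDS, 26 were opened (48.1%, 35.4 to 61.1%, background 48.2%), and of 119 in GFP control, 50 were closed (42.0%, 33.5 to 51.0%, background 29.2%). Opened peaks were 11 at Cntn5, 7 at Cdh7, 5 at Pcdh18, 2 at Epha6 and 1 at Cdh12. The 3 of highest fold enrichment, all 1.73, were at Cdh12, at Pcdh18 and at Cntn5. Closed peaks were 27 at Cntn5, 10 at Pcdh9, 5 at Slitrk5, 3 at Cdh19 and 1 each at Cdh6, Cdh9, Epha1, Epha6 and Pcdh10.

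The closed peaks of this comparison made up 13.9% of the family's length in GFP control, against 3.16% of the length of all peaks, and at 1 scale 7.12% against 2.53%. Opened peaks made up 3.91% of the family's length in GFP CSDS, against 7.84% over all peaks. Among the closed peaks, which covered 210 kb, a single peak of 93365 bp at Cdh6 (fold enrichment 2.06) was the widest. It also had the highest fold enrichment of them, followed by a peak at Epha6 (1.85) and 1 at Cntn5 (1.83). By count, the closed share lay above its background of 29.2% only with Cntn5. Without the Cntn5 peaks 23 of 90 were closed (25.6%, 17.7 to 35.4%) and 15 of 41 opened (36.6%, 23.6 to 51.9%, background 48.2%). The share of length was not computed without Cntn5. In the upper 50% of each list by fold enrichment, 6 of 24 were opened (25.0%, background 37.9%) and 27 of 67 closed (40.3%, background 28.3%). Of the 50 closed peaks, 16 (32.0%) were narrower than any GFP CSDS peak, against 39.5% of all closed peaks, and at 1 scale 25 of 68 were closed (36.8%, 26.3 to 48.6%, background 24.2%) and 27 of 54 opened (50%, 37.1 to 62.9%, background 52.1%). All 11 opened Cntn5 peaks, all 10 closed Pcdh9 peaks and all 5 closed Slitrk5 peaks met a peak in each of the 4 other lists, while 0 of the 3 closed Cdh19 peaks did. In total, 15 of the 26 opened and 28 of the 50 closed peaks met a peak of at least 1 of those lists. These counts, here and below, have no share over all called peaks beside them.

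Zbtb7a knockdown without stress was compared by Zbt-KD control against GFP control, which shares the GFP control list with the comparison above. Opened were 2 of 20 family peaks (10.0%, 2.79 to 30.1%, background 31.0%), 1 at Cntn5 and 1 at Pcdh18. Closed were 40 of 119 (33.6%, 25.8 to 42.5%, background 28.8%), of which 25 were at Cntn5, 8 at Epha6, 3 at Cdh19 and 1 each at Cdh9, Cntn1, Pcdh9 and Pcdh10. All 40 were narrower than the narrowest Zbt-KD control peak, as were 91.5% of all closed peaks. In the upper 50% by fold enrichment, 1 of 10 was opened (background 14.1%) and 26 of 67 closed (38.8%, background 35.8%). At 1 scale, 4 of 20 were opened (20.0%, 8.07 to 41.6%, background 39.2%) and 4 of 21 closed (19.0%, 7.67 to 40.0%, background 14.4%).

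Knockdown under chronic stress was compared by Zbt-KD CSDS against GFP CSDS. Opened were 3 of 16 (18.8%, 6.59 to 43.0%, background 22.0%), 1 each at Cdh6, Epha6 and Flrt2. All 3 met a peak of GFP control, a count with no share over all opened peaks to set it against. Closed were 16 of 54 (29.6%, 19.1 to 42.8%, background 38.3%), with 5 each at Cdh7 and Pcdh18, 2 each at Cdh6 and Epha6 and 1 each at Cdh12 and Cntn1. Of the 16, 14 (87.5%) were narrower than any Zbt-KD CSDS peak, against 80.1% of all closed peaks, and the Cntn1 peak had the highest fold enrichment (2.88). The Epha6 promoter peak was among them. In the upper 50% of each list by fold enrichment, 0 of 9 were opened (background 8.11%) and 10 of 24 closed (41.7%, background 42.2%). At 1 scale, 4 of 16 were opened (25.0%, 10.2 to 49.5%, background 28.5%) and 2 of 16 closed (12.5%, 3.50 to 36%, background 19.0%).

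Stress under knockdown was compared by Zbt-KD CSDS against Zbt-KD control, the pair of lists closest in scale. Opened were 2 of 16 (12.5%, 3.50 to 36%, background 27.6%), a 16589-bp peak at Cdh6 and a 9861-bp peak 130 kb upstream of Epha6. Closed were 2 of 20 (10.0%, 2.79 to 30.1%, background 24.3%), both at Cdh6. All 4 met a peak of GFP control, again with no share over all called peaks to set this against. The same counts were found at 1 scale, against 27.5% and 23.9% over all peaks. They were also found in the upper 50% by fold enrichment, of 9 and 10 peaks, against 18.6% and 21%. With 2 peaks per direction, the intervals allow shares from 2.79 to 36%.

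Overexpression was compared by ZBT-OE SSDS against GFP SSDS. The Epha3 peak was the only 1 of 15 opened (6.67%, 1.19 to 29.8%, background 31.4%). Closed were 4 of 18 (22.2%, 9 to 45.2%, background 27.7%), at Cdh3 (fold enrichment 5.13), Cntn5, Pcdh18 and Pcdh20, and 3 of these were narrower than any ZBT-OE SSDS peak, as were 62.9% of all closed peaks. The Cntn5 peak, 24.4 kb wide in the middle block, was wider than that limit. In the upper 50% of each list by fold enrichment, 1 of 5 was opened (20.0%, background 21.7%) and 8 of 12 closed (66.7%, background 22.9%). Each list was cut on its own, which left 5 of 15 family peaks in ZBT-OE SSDS and 12 of 18 in GFP SSDS. A peak closed under this setting can therefore still meet a ZBT-OE SSDS peak that the cut removed, and the rise from 4 of 18 is not read further. At 1 scale this Cntn5 peak was the only 1 of 12 closed (8.33%, 1.49 to 35.4%, background 12.6%), and 2 of 15 were opened (13.3%, 3.74 to 37.9%, background 35.4%). The Pcdh18 and Pcdh20 peaks met no peak in any other list.

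**Figure D5:**
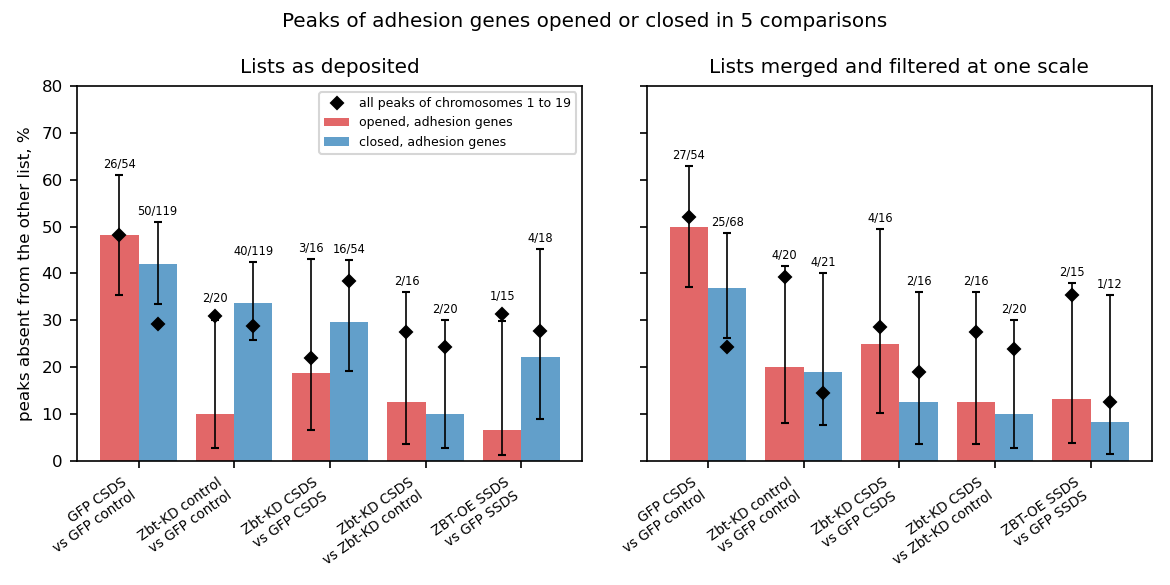
Share of family peaks absent from the other list in 5 comparisons, as deposited (left) and with both lists at the scale of that comparison (right). Bars give the percent opened or closed with 95% Wilson intervals over peaks, the fractions above them the counts, and diamonds the same share over all peaks of chromosomes 1 to 19. As deposited, the closed share of GFP CSDS against GFP control (50 of 119) is the only bar whose interval lies wholly above its diamond. Of these 50 peaks, 27 are neighbours at Cntn5, and without that gene the share was 25.6%, below the diamond. The opened shares of Zbt-KD control against GFP control (2 of 20) and of ZBT-OE SSDS against GFP SSDS (1 of 15) have intervals wholly below theirs.

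A list of 62 genes was counted beside the family. It held ephrins, Slits, Unc5 receptors, contactin-associated proteins, teneurins, latrophilins and catenins, and also other adhesion molecules not chosen as binding partners of the family. These genes were nearest to 174 peaks in GFP control, 96 in GFP CSDS, 42 in Zbt-KD control, 32 in Zbt-KD CSDS, 32 in GFP SSDS and 17 in ZBT-OE SSDS, over 8, 11, 10, 9, 10 and 9 genes. Peaks overlapped 3, 4, 5, 5, 8 and 8 of their bodies, where 6.03 to 12.2% of all protein-coding genes were overlapped. How far the list differs from all genes was not tested. Unc5d, a receptor of Flrt2, and Cntnap5c, singled out after their values were seen, were overlapped in all 6 lists.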

How the data were processed

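ATAC-seq of MACs-isolated OFC astrocytes was analysed from 6 lists of annotated peaks, 1 per group of 5 or 6 samples. Per the methods, the authors aligned reads with HISAT2 at default settings to mm10, retained unique reads, removed duplicates with SAMtools and called peaks with MACS without its model, filtered at an FDR of 0.05. The way in which samples were joined into 1 list is not given in the sources used here. The authors deposited, for each peak, the fold enrichment over background that MACS computed as a ratio, and its q-value on a linear scale, at most 0.000234. The nearest gene, annotation class and distance to the start site were used as deposited by the authors. Depth is unknown, since no read number is listed.

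Family members were found by gene name. The members and all gene lists were chosen with earlier results of these data known. The results of some members are not reported here. Named are the genes in all 6 lists, the 3 family peaks of highest fold enrichment per list and per direction of each of 5 comparisons, the widest per list, genes with a start site in a peak, and the leading gene per subfamily. Starts were read as counted from 1, since 87 of 151 promoter peaks then gave the listed distance, against 49 counted from 0. Peaks sharing at least 1 bp were called shared. Gene bodies came from GENCODE M21, base composition from GRCm38.p6 with its soft-masked repeats. No test was run over peaks or genes. Alternatives were the upper 50% by fold enrichment, an overlap of 50%, lists at 1 scale, family genes within 10 kb of a peak, peak-edge distances and an annotation by gene body, and after the data were seen, leaving out Cntn5 and coding genes only. Computations ran in Python 3.11.15 with scipy 1.17.1, pandas 2.3.3, numpy 2.4.6 and matplotlib 3.10.9. The scripts that compare lists were first tested on 3000 simulated intervals, where 8 of 8 quantities were recovered.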

Additional observations from a re-analysis of the deposited data

How the results depend on the processing

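Counts of peaks and the set of named genes both changed with the processing. With the upper 50% of each list by fold enrichment, 127 family peaks were left of 242, 4 genes in place of 9 were named in all 6 lists, and 11.4% of regions were met by all lists. Each count of opened and closed peaks is given below with the share over all peaks under the same setting as background. For GFP CSDS against GFP control, 6 of 24 were then opened (background 37.9%) and 27 of 67 closed (28.3%). For Zbt-KD control against GFP control these were 1 of 10 (14.1%) and 26 of 67 (35.8%), and for Zbt-KD CSDS against GFP CSDS 0 of 9 (8.11%) and 10 of 24 (42.2%). For ZBT-OE SSDS against GFP SSDS 8 of 12 were closed (22.9%), in place of 4 of 18. Each list was cut on its own here, so a peak called opened or closed can still meet a peak that the cut removed. With all 6 lists at the scale of 20269 bp, 77 family peaks were left and 50% of regions were met by all 6 lists. Each comparison used the scale of its own 2 lists instead. At 1174 bp, 25 of 68 were closed for GFP CSDS against GFP control (24.2%). At 6425 bp, 4 of 20 were opened (39.2%) and 4 of 21 closed (14.4%) for Zbt-KD control against GFP control. At 6507 bp, 2 of 16 were closed for Zbt-KD CSDS against GFP CSDS (19.0%). At 20269 bp, 2 of 15 were opened (35.4%) and 1 of 12 closed (12.6%) for ZBT-OE SSDS against GFP SSDS. When a peak was instead assigned to a family gene within 10 kb of its edge, 49 peaks (0.355% of peaks), 8 genes and 2 genes in all 6 lists were left, and the backgrounds are those of the lists as deposited. Opened and closed were then 11 of 17 (48.2%) and 2 of 7 (29.2%), 1 of 6 (31.0%) and 3 of 7 (28.8%), and 0 of 3 (22.0%) and 9 of 17 (38.3%) in the first 3 comparisons, with 0 of 3 opened for Zbt-KD CSDS against Zbt-KD control (27.6%) and 2 of 8 closed for ZBT-OE SSDS against GFP SSDS (27.7%). Without Cntn5, added after the data were seen, 15 of 41 peaks were opened (48.2%) and 23 of 90 closed (29.2%) for GFP CSDS against GFP control. Called intergenic only when no base lay in an annotated gene, 73.6% of family peaks were intergenic in place of 95.9%. With protein-coding genes only, a setting added after the data were seen, the share was 94.6%. These settings leave fewer peaks or join them by construction, and no other cause was tested. An overlap of 50% changed no count of opened or closed peaks.

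No paired analysis was possible because each group has 1 list with no value per sample, and for the same reason leaving out a sample was not run. Absence of a narrow peak and the scale of a list cannot be told apart.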
